A study of Mus musculus with 22 samples.

Results

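The genes that write, copy and remove methyl groups on cytosine in DNA were followed as mouse pluripotent stem cells were turned into osteoblast cultures. The set comprised 8 genes chosen by symbol: Dnmt1, Uhrf1, Dnmt3a, Dnmt3b, Dnmt3l, Tet1, Tet2 and Tet3. All 8 were found among the 18632 genes that 3 tables of differential expression had in common. The tables come from RNA sequencing of 5 groups of cells that all carried Col2.3GFP, a transgene in which a type I collagen promoter fragment makes cells of the osteoblast lineage fluoresce. ESC-OB (3 samples) were whole cultures grown from embryonic stem cells (ESC) at passages 20 to 30 and taken through 35 to 40 days of differentiation. That course began with 6 days as suspended embryoid bodies, with 0.1 µM retinoic acid between days 3 and 5, and went on in osteogenic medium. Sorted ESC-OB GFP+ (3 samples) were the fluorescent cells of such cultures, with no passage given. Their starting point was undifferentiated ESC (3 samples). iPSC-OB (2 samples) were whole cultures taken through the same course from induced pluripotent stem cells (iPSC), somatic cells returned to a pluripotent state, at passages 10 to 20, and iPSC (2 samples) were their undifferentiated start. The labels name 1 ESC line and 1 iPSC line. Stem cells were kept on fibroblast feeders or in serum-free medium without feeders, and the sources used here do not tie a medium to a sample. Primary calvarial osteoblasts and fluorescent bone cells are named in the labels and were not analysed here.

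Cytosine methylation in mammals sits mostly on CG pairs (CpG). Dnmt3a and Dnmt3b place methyl groups on unmethylated DNA, Dnmt3l has no catalytic activity of its own and stimulates both, and Dnmt1 copies the pattern onto the new strand after replication, where Uhrf1 recognises hemimethylated sites and recruits it. Tet1, Tet2 and Tet3 oxidise the methyl group, which opens the way to its removal by dilution at replication or by excision and repair. Pluripotent cells are known for abundant Tet1, Dnmt3b, Dnmt3l and Uhrf1, whereas Dnmt3a, Tet2 and Tet3 are used in many differentiated tissues.

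The promoters of the 2 genes of the copying step are shown because both held words of the motif bound by E2F factors, which drive genes of the S phase of the cell cycle, and none of the other 6 did. Sequences are from RefSeq on GRCm38.p6, read 5′ to 3′ on the gene's strand, and all 8 genes had windows there. Each window ran from 250 bases before a listed transcript start to 50 bases after it. Capitals mark the word TTTCGCGC, which in Dnmt1 lies on the opposite strand and so reads GCGCGAAA.
Dnmt1, chr9:20952824-20952853, minus strand: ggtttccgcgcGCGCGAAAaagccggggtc
Uhrf1, chr17:56304098-56304177, plus strand: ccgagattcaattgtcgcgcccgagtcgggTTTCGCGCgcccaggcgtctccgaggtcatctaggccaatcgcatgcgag

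The word began 219 bases before a listed start of Dnmt1 and 185 bases before one of Uhrf1. Other listed windows of these genes held no word of the motif. The words searched were TTTCCCGC, TTTCGCGC, TTTGCCGC and TTTGGCGC on both strands, and Dnmt1 also held TTTGGCGC in the same window. Of 27025 genes with a window, 704 (2.605%) held at least 1 of these words. A match describes letters only, and no binding was measured.

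The promoters of Dnmt3b and Dnmt3l, a catalytic enzyme and its partner without activity, are shown for their difference in CpG, with each CpG in capitals.
Dnmt3b, chr2:153649329-153649448, plus strand: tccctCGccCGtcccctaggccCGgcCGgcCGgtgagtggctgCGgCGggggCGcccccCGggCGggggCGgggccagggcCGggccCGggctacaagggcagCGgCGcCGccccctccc
Dnmt3l, chr10:78042167-78042286, plus strand: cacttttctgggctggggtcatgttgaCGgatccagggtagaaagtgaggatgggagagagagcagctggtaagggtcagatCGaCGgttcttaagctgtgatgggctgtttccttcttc

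These stretches of 120 bases held 16 CpG in Dnmt3b and 3 in Dnmt3l. Over whole windows of 300 bases the Dnmt3b promoter held 30 CpG and the 3 listed Dnmt3l promoters held 6, 4 and 3, against a median of 7 over 32851 windows (quartiles 3 and 20). The Tet promoters held 17 CpG (Tet1), 57 (Tet2) and 22 (Tet3), and the richest windows of Dnmt1 and Uhrf1 held 33 each. Dnmt3l was thus the only one of the 8 with no listed window above that median.

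Positive log2 changes are higher in the differentiated cells, and DNA methylation itself was not measured. All fold changes, standard errors and adjusted p-values of single genes are from the authors' deposited tables, whose columns are those of DESeq2's results. No values per single sample were used, so the spread within a group appears only through those standard errors. Levels are given in CPM (reads of a gene per 1000000 counted) as 1 estimate per group, worked back from the authors' mean normalised counts and fold changes. The standard error of such a level was 0.09 to 0.28 on the log2 scale for 7 of the 8 genes and 0.38 to 0.73 for Dnmt3l. Read depth, recovered from the smallest values in the tables, was 6.72 to 11.5 M reads for ESC-OB, 22.4 to 30.1 M for sorted ESC-OB GFP+, 4.49 to 19.5 M for ESC, 10.1 to 17.7 M for iPSC-OB and 10.4 to 13.0 M for iPSC. A floor of 3 reads over a group lay between 0.0427 and 0.116 CPM, and the members had at least 4.20 CPM in every group. The sources used here do not say whether replicates were separate cultures, so p-values speak of the spread among these samples, which may be technical. The 8 pluripotency markers summed to 39.2 CPM in ESC-OB, 30.7 CPM in sorted ESC-OB GFP+ and 5628 CPM in ESC, and to 52.6 CPM in iPSC-OB and 2531 CPM in iPSC. The 8 osteoblast markers summed to 5247 CPM in ESC-OB, 11206 CPM in sorted ESC-OB GFP+ and 320.5 CPM in ESC, and to 2873 CPM in iPSC-OB and 845.5 CPM in iPSC. Alpl, which is also high in pluripotent cells and fell in all 3 comparisons, made up 307.9 CPM of the sum in ESC and 113 CPM of that in iPSC. The 8 fibroblast and feeder markers summed to 3900, 5617 and 112 CPM in ESC-OB, sorted ESC-OB GFP+ and ESC, where Fbln1 alone gave 103.8 CPM in ESC and Dcn lay under the floor there, and to 2147 CPM in iPSC-OB and 230 CPM in iPSC. Endothelial markers summed to 240 CPM in ESC-OB, 93.0 CPM in sorted ESC-OB GFP+ and 257 CPM in ESC, and to 170 CPM in iPSC-OB and 65.1 CPM in iPSC. Pecam1, Eng and Vwf gave 110, 73.3 and 61.4 CPM of the endothelial sum in ESC, where Tie1 and Emcn lay under the floor. Cdh5, by contrast, was at 0.106 CPM in ESC and 77.7 CPM in ESC-OB. Neural markers summed to 166 CPM in ESC-OB, 99.1 CPM in sorted ESC-OB GFP+ and 416 CPM in ESC, and to 205 CPM in iPSC-OB and 449 CPM in iPSC. Stmn2, Ncam1 and Tubb3 gave 179, 113 and 76.4 CPM of the neural sum in ESC.

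In ESC-OB, the copying enzymes, Dnmt3b, Dnmt3l, Tet1 and Tet2 fell relative to ESC, while Dnmt3a and Tet3 rose. All 8 passed at an adjusted p under 0.05 in the authors' deposited table, where 69.6% of all tested genes passed. Of the 8 genes 6 fell and 2 rose, against 31.0% of all tested genes that fell and 38.6% that rose. The median of the 8 log2 changes was -2.65 and that of all tested genes was 0.26. These are bulk samples, in which fewer cells of a type and less RNA per cell cannot be told apart.

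**Figure D1:**
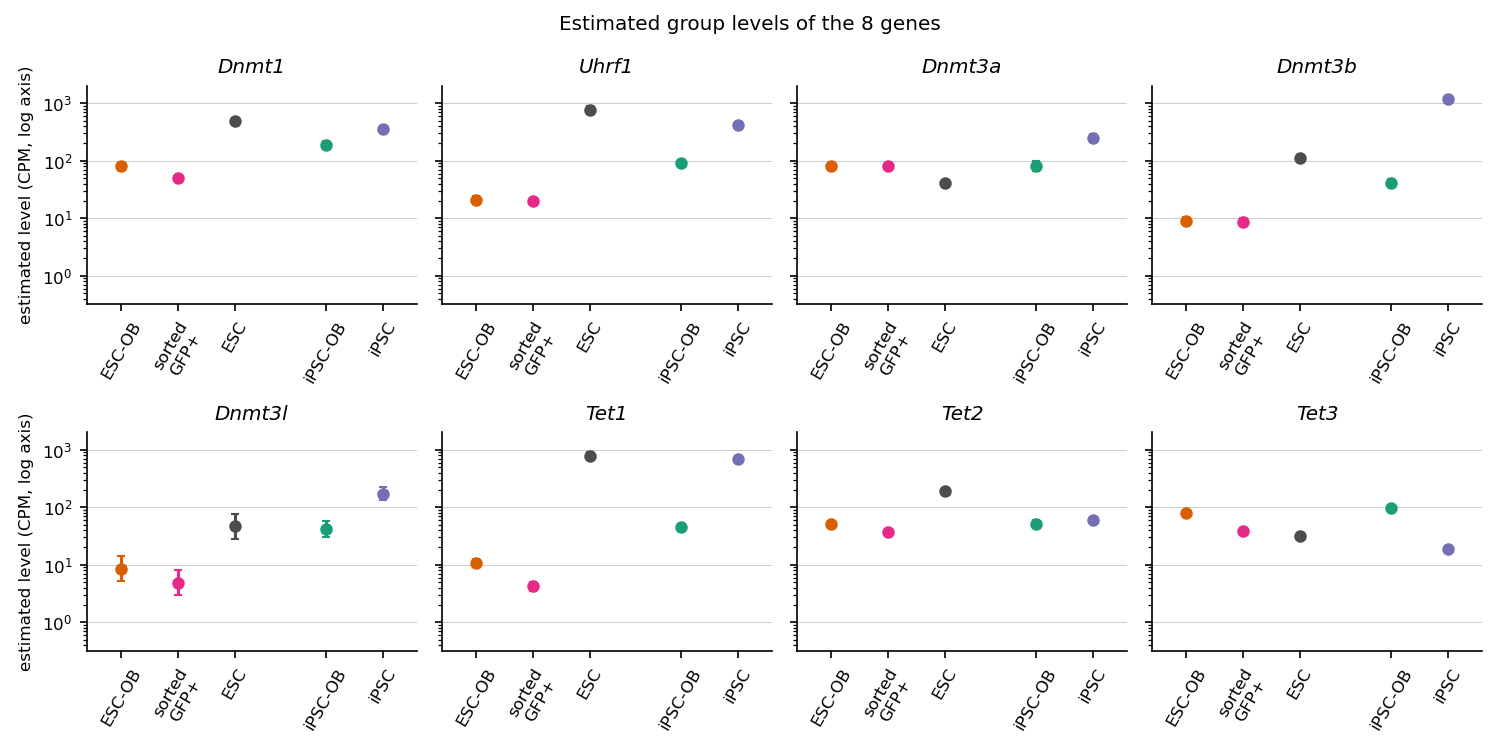
Estimated level of each of the 8 genes in each group, in CPM on a log axis, with bars of 1 standard error of the level (often smaller than the point). Groups left of the gap come from the ESC fit and those right of it from the iPSC fit. Tet1 stands at 774 CPM in ESC against 4.20 CPM in sorted ESC-OB GFP+, and Dnmt3b at 1203 CPM in iPSC against 109.6 CPM in ESC.

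Transcripts of the copying step fell in every comparison, Uhrf1 more than Dnmt1. Uhrf1, which finds hemimethylated sites behind the replication fork, was at 20.8 CPM in ESC-OB and 19.7 CPM in sorted ESC-OB GFP+, against 764 CPM in ESC. Its log2 change in the authors' deposited table was -5.30 ± 0.29 in ESC-OB (adjusted p = 5.31e-71) and -5.44 ± 0.29 in sorted ESC-OB GFP+ (adjusted p = 4.84e-77), where ± gives the standard error throughout. That is 39.5-fold and 43.4-fold lower. Dnmt1, the enzyme that Uhrf1 recruits, fell less, to 79.6 CPM in ESC-OB and 49.9 CPM in sorted ESC-OB GFP+, against 490.6 CPM in ESC. The authors' deposited table gives -2.72 ± 0.17 and -3.46 ± 0.17 for Dnmt1 (adjusted p = 1.32e-58 and 2.31e-95). In iPSC-OB the same pair fell by less: Dnmt1 was at 191.8 CPM in iPSC-OB and 362.7 CPM in iPSC, and Uhrf1 at 90.4 CPM in iPSC-OB and 422 CPM in iPSC. Their changes in the authors' deposited table were -0.97 ± 0.27 for Dnmt1 (adjusted p = 0.00124) and -2.27 ± 0.19 for Uhrf1 (adjusted p = 3.93e-30).

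Tet1, the Tet enzyme that marks pluripotent cells, changed more than any other member in both ESC comparisons. It was at 10.7 CPM in ESC-OB and 4.20 CPM in sorted ESC-OB GFP+, against 774 CPM in ESC. The authors' deposited table gives -6.28 ± 0.34 in ESC-OB and -7.69 ± 0.34 in sorted ESC-OB GFP+ (adjusted p = 2.16e-73 and 2.17e-110), or 77.5-fold and 206-fold lower. Only 1.04% and 0.802% of all tested genes had a lower log2 change in those comparisons. In iPSC-OB it was at 45.1 CPM, against 697 CPM in iPSC, a change of -4.00 ± 0.25 in the authors' deposited table (DESeq2 adjusted p = 7.76e-56) and 16.0-fold lower.

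Tet2 and Tet3, which oxidise methyl groups in many differentiated tissues, differed from Tet1, Tet2 in its size of change and Tet3 in its direction. Tet2 was at 51.3 CPM in ESC-OB and 36.8 CPM in sorted ESC-OB GFP+, against 188 CPM in ESC, with changes of -1.98 ± 0.25 and -2.51 ± 0.25 in the authors' deposited table (DESeq2 adjusted p = 1.68e-14 and 5.01e-23). In the iPSC series Tet2 was at 51.8 CPM in iPSC-OB and 59.1 CPM in iPSC, and the change of -0.24 ± 0.24 in the authors' deposited table did not pass the test (adjusted p = 0.431, 95% interval -0.71 to 0.23). Tet3 rose to 79.8 CPM in ESC-OB, against 31.8 CPM in ESC, and to 96.7 CPM in iPSC-OB, against 18.9 CPM in iPSC. The authors' deposited table gives 1.23 ± 0.18 for ESC-OB (adjusted p = 4.05e-11) and 2.31 ± 0.24 for iPSC-OB (adjusted p = 4.05e-21), or 2.34-fold and 4.96-fold higher. In sorted ESC-OB GFP+ it was at 38.1 CPM and the change of 0.10 ± 0.18 in the authors' deposited table did not pass (adjusted p = 0.621, 95% interval -0.25 to 0.46). Its sign turned, to -0.11, when changes were re-centred on the median gene.

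**Figure D2:**
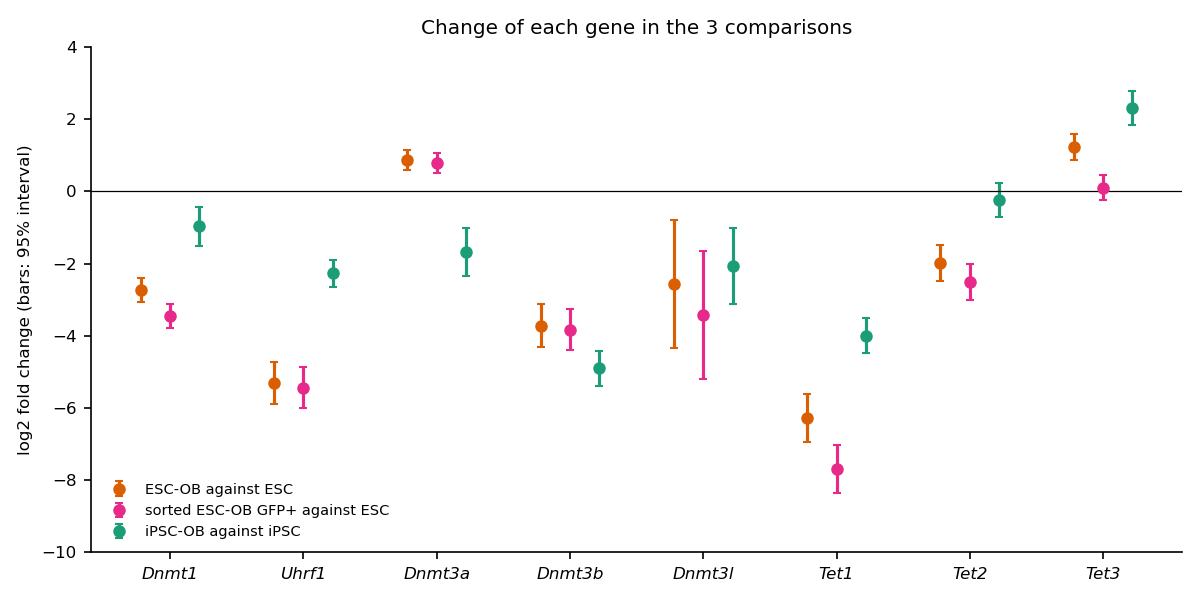
Log2 fold change of each gene in the 3 comparisons of the authors' deposited tables, with 95% intervals from their standard errors. Tet1 and Uhrf1 lie lowest in both ESC comparisons, Dnmt3b lies lowest in iPSC-OB at -4.90, and Dnmt3a lies above 0 in both ESC comparisons and below 0 in iPSC-OB.

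Of the enzymes that place new methyl groups, Dnmt3b, the main such enzyme of the early embryo, was lower in all 3 comparisons. It was at 8.90 CPM in ESC-OB and 8.62 CPM in sorted ESC-OB GFP+, against 109.6 CPM in ESC, and at 41.7 CPM in iPSC-OB, against 1203 CPM in iPSC. Its changes in the authors' deposited table were -3.72 ± 0.30, -3.83 ± 0.29 and -4.90 ± 0.25 (adjusted p = 1.20e-33, 6.64e-38 and 3.55e-83 in that order), so it was 13.2-fold, 14.2-fold and 29.8-fold lower. In iPSC-OB, 0.614% of all tested genes had a lower log2 change.

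Dnmt3a, the related enzyme of later embryos and adult tissues, differed in direction between the stem cell sources. It was at 81.2 CPM in ESC-OB and 79.6 CPM in sorted ESC-OB GFP+, against 41.3 CPM in ESC, and rose by 0.87 ± 0.14 and 0.79 ± 0.14 on the log2 scale in the authors' deposited table (DESeq2 adjusted p = 3.5e-09 and 6.15e-08). Neither rise reached a doubling. In iPSC-OB it was at 80.2 CPM, against 248.7 CPM in iPSC, and the authors' deposited table gives -1.68 ± 0.34 (adjusted p = 4.98e-06). The opposite directions thus came with similar estimated levels in the 3 differentiated groups (79.6 to 81.2 CPM) and unlike levels in the undifferentiated ones. The iPSC-OB level ran from 66.3 to 97.1 CPM at 1 standard error. It was 92.0 CPM with 2 iPSC libraries, as in the labels, and 74.2 CPM with the authors' shrinkage undone.

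Dnmt3l, which lacks catalytic activity, fell in all 3 comparisons with wide errors. It was at 8.49 CPM in ESC-OB and 4.89 CPM in sorted ESC-OB GFP+, against 47.1 CPM in ESC, and at 42.2 CPM in iPSC-OB, against 171 CPM in iPSC. With the authors' shrinkage undone, the Dnmt3l level was 5.54 CPM in ESC-OB and 2.68 CPM in sorted ESC-OB GFP+, against 51.8 CPM in ESC. The authors' deposited table gives -2.57 ± 0.90, -3.43 ± 0.90 and -2.07 ± 0.54 (adjusted p = 0.00713, 2.62e-04 and 4.63e-04 in that order). The error of 0.90 in ESC-OB was larger than that of 96.8% of the 2796 genes with a base mean within 1.5-fold of its own, whose median was 0.23, and the error in iPSC-OB was larger than that of 97.9% of 1913 such genes. Dnmt3l shares 67 exon bases (2.51% of its own) with Aire on the other strand, Dnmt3a shares 133 (1.34%) with Dnmt3aos and Tet2 shares 43 (0.467%) with Gm42567. The sources used here do not say whether the counting used strand.

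In sorted ESC-OB GFP+ 1 member rose, 6 fell and Tet3 did not pass, where 71.5% of all tested genes passed, 39.1% rising and 32.4% falling. The median of the 8 was -3.44, against 0.28 over all tested genes. In iPSC-OB 1 member rose, 6 fell and Tet2 did not pass, where 49.2% of all tested genes passed, 26.1% rising and 23.1% falling, and the median of the 8 was -1.87, against 0.15 over all tested genes. Dnmt1, Uhrf1, Dnmt3b, Dnmt3l and Tet1 fell in all 3 comparisons. Both ESC comparisons share their ESC libraries.

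Divided by exon length, the levels of relatives can be set against each other. Dnmt3a made up 61.0% of the summed CPM per kb of the Dnmt3 genes in ESC-OB and 67.7% in sorted ESC-OB GFP+, against 8.84% in ESC. Dnmt3b made up 15.3% and 16.8% of that sum in the differentiated groups, against 53.7% in ESC. Dnmt3l, whose levels had the widest errors, made up 23.7% in ESC-OB, 15.5% in sorted ESC-OB GFP+ and 37.4% in ESC. In the iPSC series Dnmt3a held 24.1% of the sum in iPSC-OB and 6.83% in iPSC, and Dnmt3b held 28.8% in iPSC-OB and 75.7% in iPSC. Dnmt3l held the largest share in iPSC-OB, 47.1%, and 17.5% in iPSC. Dnmt3a was thus the leading Dnmt3 transcript per length in ESC-OB and sorted ESC-OB GFP+ and not in iPSC-OB, with no test of these shares. The sum itself was 13.4 CPM per kb in ESC-OB, 11.9 in sorted ESC-OB GFP+ and 47.1 in ESC, and 33.5 in iPSC-OB and 367 in iPSC.

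Among the Tet genes, Tet1 made up 5.68% of the summed CPM per kb in ESC-OB and 3.87% in sorted ESC-OB GFP+, against 69.9% in ESC, and 18.5% in iPSC-OB, against 85.8% in iPSC. Tet3 made up 51.8% in ESC-OB, 43.1% in sorted ESC-OB GFP+ and 3.52% in ESC, and 48.4% in iPSC-OB and 2.84% in iPSC. Tet2 took the largest share in sorted ESC-OB GFP+, 53.1%, and Tet3 did so in ESC-OB and iPSC-OB. The summed Tet level was 13.1 CPM per kb in ESC-OB, 7.54 in sorted ESC-OB GFP+ and 77.0 in ESC, and 17.0 in iPSC-OB and 56.5 in iPSC.

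**Figure D3:**
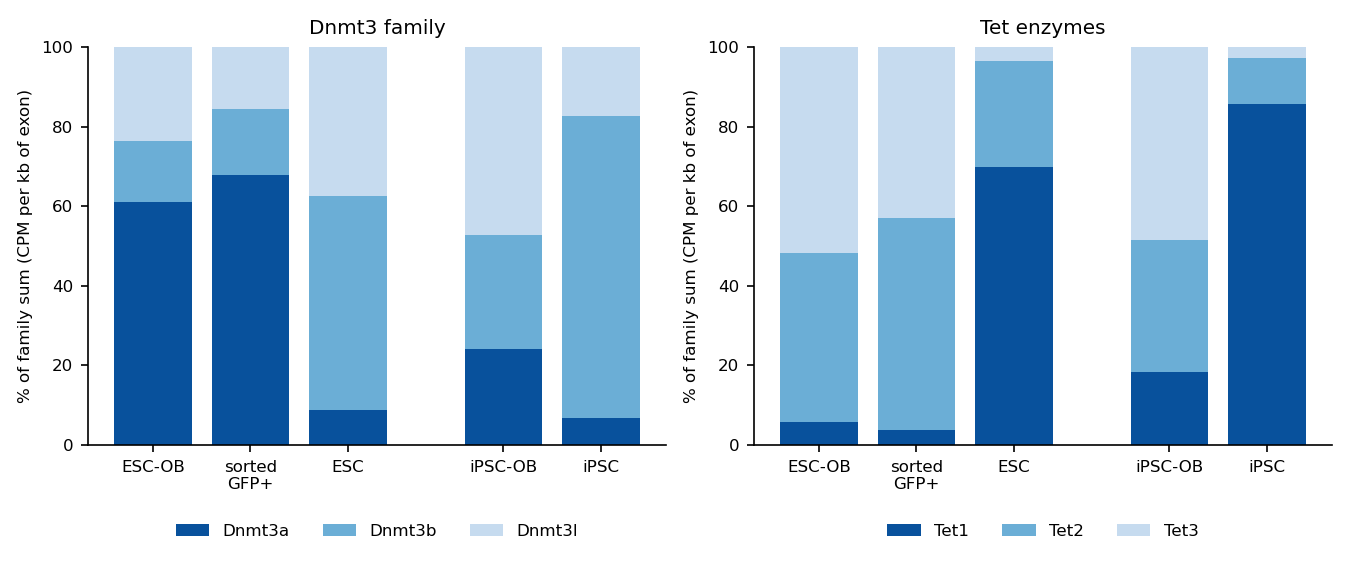
Share of each gene in the summed level of its family (percent of CPM per kb of exon), for the Dnmt3 genes on the left and the Tet genes on the right, 1 bar per group. Tet1 fills 69.9% of the Tet bar in ESC and 5.68% in ESC-OB, and Dnmt3a fills 8.84% of the Dnmt3 bar in ESC and 61.0% in ESC-OB.

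The sorted and unsorted ESC cultures were compared through the difference of their changes against ESC, with a two-sided Wald test built from DESeq2's estimates and adjusted over 19781 genes. The test treats both changes as independent although they share the ESC libraries, which makes its errors too wide. Dnmt1, Tet1 and Tet3 were lower in sorted ESC-OB GFP+ than in ESC-OB, none of the 8 was higher, and 5 did not pass, where 22.7% of all genes passed, 12.1% lower and 10.7% higher. Tet3 had the smallest adjusted p of the 8, with a difference of -1.12 ± 0.26 (adjusted p = 1.20e-04) and levels of 38.1 CPM in sorted ESC-OB GFP+ and 79.8 CPM in ESC-OB. The difference for Tet1 was -1.41 ± 0.48 (adjusted p = 0.0189) and that for Dnmt1 was -0.73 ± 0.23 (adjusted p = 0.0108). For Dnmt3a the difference was -0.09 with a 95% interval of -0.48 to 0.31, and for Uhrf1 it was -0.14 with an interval of -0.95 to 0.67. The intervals of Dnmt3b (-0.93 to 0.72) and Tet2 (-1.23 to 0.16) also include 0, and that of Dnmt3l (-3.35 to 1.65) is too wide to be informative. The order of levels was therefore ESC, ESC-OB, sorted ESC-OB GFP+ for Dnmt1 and Tet1, with every neighbour different. For Uhrf1, Dnmt3b, Dnmt3l and Tet2 ESC stood above both differentiated groups, and for Dnmt3a below both, with no difference passing between the differentiated groups. For Tet3 ESC-OB stood above both others, between which none passed. With the shared libraries allowed for, the adjusted p for Tet2 was 0.0662.

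Several other measures moved with the sort. Of the 8 pluripotency markers, summing to 30.7 CPM in sorted ESC-OB GFP+ and 39.2 CPM in ESC-OB, 4 were lower and 0 higher, with differences of -0.97 ± 0.31 for Pou5f1, -2.20 ± 0.70 for Nanog, -0.90 ± 0.26 for Sox2 and -3.45 ± 0.88 for Esrrb (adjusted p = 0.0112, 0.00950, 0.00354 and 7.83e-04 in that order, Wald test). Of the 8 neural markers 3 were lower and 0 higher. The 8 cardiac muscle markers summed to 509 CPM in sorted ESC-OB GFP+ and 2502 CPM in ESC-OB (4 of 8 lower, 0 higher), while for the osteoblast markers, at 11206 CPM in sorted ESC-OB GFP+ and 5247 CPM in ESC-OB, 0 of 8 passed in either direction. Macrophage markers summed to 283 CPM in sorted ESC-OB GFP+ and 164.5 CPM in ESC-OB, with 0 of 10 passing in either direction and none under the floor. Simple epithelium and endoderm markers summed to 2931 CPM in sorted ESC-OB GFP+ and 1529 CPM in ESC-OB (3 of 8 higher, 0 lower). Mki67, a protein of dividing cells, was at 17.5 CPM in sorted ESC-OB GFP+ and 88.7 CPM in ESC-OB, a difference of -2.40 ± 0.24 (adjusted p = 4.71e-22, same Wald test). Of the 25 genes of replication and S phase, which include Mki67, 2 were higher (Gins2 and E2f1) and 3 lower (Mki67, Pola1 and Rb1). The part of these in the differences of Dnmt1, Tet1 and Tet3 was not tested. Low-input kits were used for scarce RNA, and the sources used here do not tie a kit to a sample, so kit and sort cannot be told apart.

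The change of iPSC cultures was set against that of ESC cultures in the same way, adjusted over the 18632 shared genes. Of the 8 members 5 had a higher change in iPSC-OB, 2 had a lower one and Dnmt3l did not pass, where 28.2% of all genes passed, 11.0% higher and 17.2% lower. Uhrf1 had the largest difference, 3.03 ± 0.35 (adjusted p = 5.57e-16), since it fell by 2.27 in iPSC-OB and by 5.30 in ESC-OB. Tet1 differed by 2.28 ± 0.42 (adjusted p = 1.18e-06), Dnmt1 by 1.76 ± 0.32 (adjusted p = 6.41e-07), Tet2 by 1.74 ± 0.35 (adjusted p = 7.46e-06) and Tet3 by 1.08 ± 0.30 (adjusted p = 0.00178). Dnmt3a differed by -2.55 ± 0.37 (adjusted p = 2.14e-10) and Dnmt3b by -1.18 ± 0.39 (adjusted p = 0.0128). The interval for Dnmt3l ran from -1.56 to 2.57. The copying pair and the 3 Tet genes thus had the higher change in iPSC-OB, and the catalytic Dnmt3 enzymes had the lower one. Whether this grouping goes with the role of the genes was not tested.

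**Figure D4:**
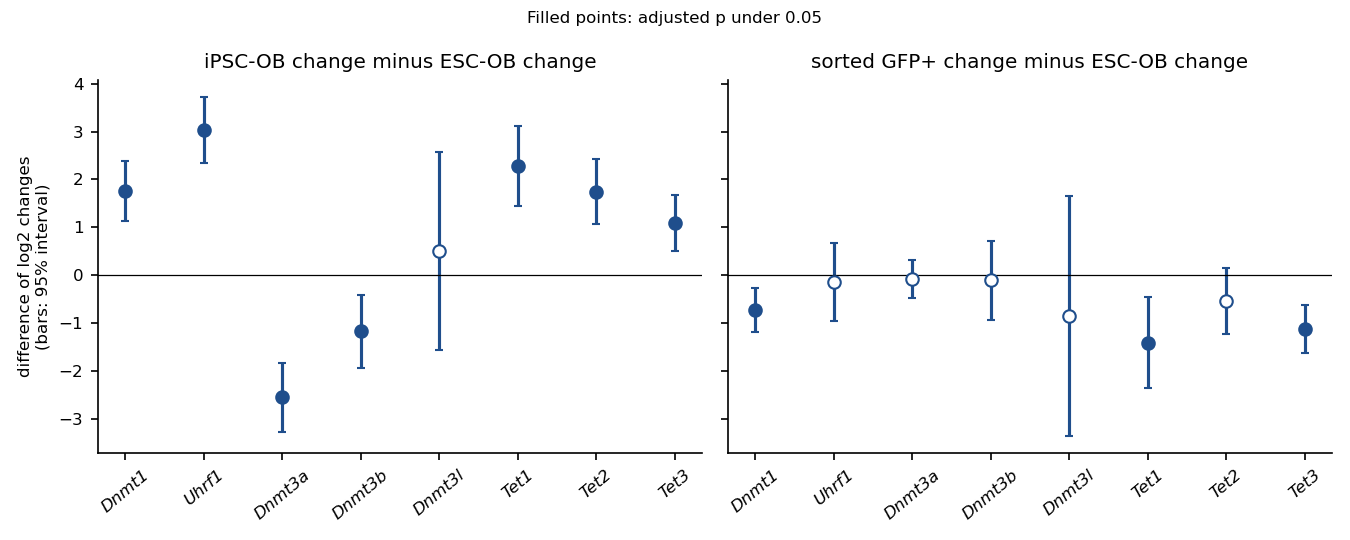
Difference between log2 changes for each gene, with 95% intervals: iPSC-OB change minus ESC-OB change on the left and sorted ESC-OB GFP+ change minus ESC-OB change on the right. Filled points have an adjusted p under 0.05. On the left Uhrf1 is highest at 3.03 and Dnmt3a lowest at -2.55, and on the right the 3 filled points are all below 0.

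A difference of changes can arise at either end, and the levels show both. The tables of the ESC and iPSC series were normalised separately, so levels across them carry no test. Undifferentiated iPSC had 11.0 times the Dnmt3b level of ESC (1203 CPM in iPSC, 109.6 CPM in ESC), 6.02 times the Dnmt3a level (248.7 CPM in iPSC, 41.3 CPM in ESC) and 3.64 times the Dnmt3l level (171 CPM in iPSC, 47.1 CPM in ESC). Tet2 was at 0.313 of the ESC level (59.1 CPM in iPSC and 188 CPM in ESC), whereas Tet1 was at 0.901 and Dnmt1 at 0.739 of it. Over 9817 well-counted genes the same ratio had a median of 1.03 and a range from 0.456 to 6.26 between the 5th and 95th percentiles. Dnmt3b thus lay above that range, Tet2 below it and the other 6 within it. Prdm14, which in mouse ESC represses Dnmt3b, Dnmt3a and Dnmt3l, was at 4.24 CPM in iPSC and 83.7 CPM in ESC, a ratio of 0.0507. Of the other naive-state regulators listed below, Nanog, Esrrb, Zfp42, Tfcp2l1, Dppa2, Tcl1 and Klf2 were also lower in iPSC than in ESC. Dppa3 (60.3 CPM in iPSC, 31.1 CPM in ESC), Dppa4, Lin28a and Lin28b were higher in iPSC. Stromal transcripts also differed between the undifferentiated groups: Col1a1 was at 404.6 CPM in iPSC and 10.3 CPM in ESC, Col1a2 at 314 CPM in iPSC and 0.669 CPM in ESC, and Col3a1 at 65.0 CPM in iPSC and 1.09 CPM in ESC. Among the osteoblast and the fibroblast and feeder markers, only Alpl and Fbln1 were lower in iPSC than in ESC. Alpl was at 113 CPM in iPSC and 307.9 CPM in ESC, and Fbln1 at 60.6 CPM in iPSC and 103.8 CPM in ESC. Lum, low in both, was at 0.314 CPM in iPSC and 0.233 CPM in ESC. The part of Prdm14 and of these transcripts in the members' levels was not tested.

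At the other end, iPSC-OB had 4.35 times the Uhrf1 level of ESC-OB (90.4 CPM in iPSC-OB, 20.8 CPM in ESC-OB), 4.21 times the Tet1 level (45.1 CPM in iPSC-OB, 10.7 CPM in ESC-OB) and 2.41 times the Dnmt1 level (191.8 CPM in iPSC-OB, 79.6 CPM in ESC-OB). Dnmt3b was at 4.68 times and Dnmt3l at 4.96 times the ESC-OB level, while Dnmt3a, Tet2 and Tet3 were at 0.988, 1.01 and 1.21 times. Mki67 was at 532 CPM in iPSC-OB and 88.7 CPM in ESC-OB, a ratio of 6.00. Osteoblast markers summed to 2873 CPM in iPSC-OB and 5247 CPM in ESC-OB, and cardiac markers to 650 CPM in iPSC-OB and 2502 CPM in ESC-OB. Epithelium and endoderm markers summed to 3300 CPM in iPSC-OB and 1529 CPM in ESC-OB, of which Afp alone gave 1659 CPM and 16.0 CPM. Of these 8 epithelium and endoderm markers, 1 had a higher change in iPSC-OB than in ESC-OB and 5 a lower one. Pluripotency markers summed to 52.6 CPM in iPSC-OB and 39.2 CPM in ESC-OB, and to 2531 CPM in iPSC and 5628 CPM in ESC. Among these 8 pluripotency markers, 6 had a higher change in iPSC-OB than in ESC-OB and 0 a lower one. The part of these in the members' differences was not tested. Line, passage and separate normalisation cannot be told apart from the source of the cells.

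The genes of replication and S phase fell with the copying pair. In ESC-OB 22 of 25 fell and 3 rose, in sorted ESC-OB GFP+ 22 fell and 2 rose, and in iPSC-OB 20 fell and 3 rose, with list medians of -3.24, -3.23 and -1.57. Beside this list and those below stand the shares of all tested genes: in ESC-OB 31.0% fell and 38.6% rose. In sorted ESC-OB GFP+ 32.4% fell and 39.1% rose, and in iPSC-OB 23.1% fell and 26.1% rose. Mcm7 and Mcm5, subunits of the replicative helicase, were at -3.64 ± 0.13 and -4.55 ± 0.17 on the log2 scale in ESC-OB in the authors' deposited table (DESeq2 adjusted p = 1.01e-165 and 2.71e-146). E2f1, a factor that binds the motif printed above, was at -3.13 ± 0.15 in ESC-OB, -2.53 ± 0.13 in sorted ESC-OB GFP+ and -0.87 ± 0.21 in iPSC-OB in the authors' deposited table (DESeq2 adjusted p = 2.13e-90, 1.87e-84 and 1.33e-04 in that order). The 3 that rose in ESC-OB hold the cycle back: Cdkn1a, a kinase inhibitor (1.85 ± 0.18), and the retinoblastoma family genes Rb1 (0.92 ± 0.14) and Rbl2 (1.55 ± 0.19) in the authors' deposited table (DESeq2 adjusted p = 1.34e-23, 7.07e-10 and 5.01e-15 in that order). Mki67 fell by 2.81 ± 0.17 in ESC-OB, and its change of -0.52 ± 0.39 in iPSC-OB did not pass by the authors' deposited table (DESeq2 adjusted p = 7.11e-63 and 0.277). Between sources, 18 of the 25 had a higher change in iPSC-OB than in ESC-OB and 0 a lower one.

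**Figure D5:**
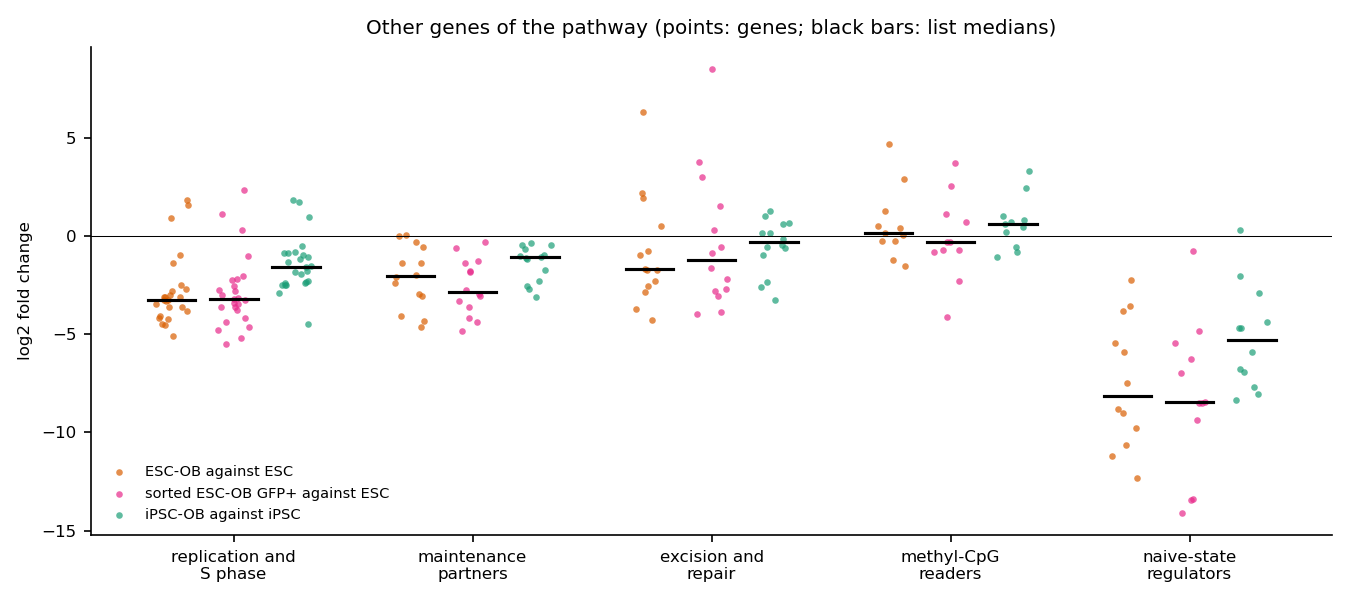
Log2 fold change of each gene of 5 lists around the methylation enzymes in the 3 comparisons, from the authors' deposited tables; points are genes and black bars are list medians. Replication genes have medians of -3.24, -3.23 and -1.57, and the naive-state regulators lie lowest.

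Partners of the copying step and of targeting fell and none rose. Of 14 measured, 12 fell in ESC-OB, 13 in sorted ESC-OB GFP+ and 11 in iPSC-OB, with medians of -2.07, -2.85 and -1.09. Hells, a chromatin remodeller needed for DNA methylation in mice, was at -4.33 ± 0.25 in ESC-OB, -4.82 ± 0.24 in sorted ESC-OB GFP+ and -2.70 ± 0.29 in iPSC-OB in the authors' deposited table (DESeq2 adjusted p = 1.65e-66, 4.84e-85 and 4.88e-19). Pcna, the replication clamp that Dnmt1 binds, was at -2.39 ± 0.14, -2.75 ± 0.13 and -2.28 ± 0.18 in the authors' deposited table (DESeq2 adjusted p = 7.05e-67, 1.27e-90 and 7.31e-36). Zfp57, which protects methylation at imprinted genes, was at -4.05 ± 0.19 and -4.38 ± 0.19 in the ESC comparisons and -1.04 ± 0.26 in iPSC-OB in the authors' deposited table (DESeq2 adjusted p = 1.46e-96, 1.43e-118 and 2.00e-04), and its cofactor Trim28 was at -2.94 ± 0.17, -3.32 ± 0.17 and -2.57 ± 0.18 (adjusted p = 1.71e-63, 1.22e-81 and 2.44e-45).

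The list of naive-state regulators holds genes that act on methylation in mouse ESC or mark cells in which methylation is low. It also holds Lin28a and Lin28b, which are not particular to that state. All 12 fell in both ESC comparisons, and 11 fell in iPSC-OB, with medians of -8.14, -8.47 and -5.31. Prdm14 was at -9.76 ± 0.84 in ESC-OB, -9.39 ± 0.49 in sorted ESC-OB GFP+ and -4.68 ± 0.76 in iPSC-OB in the authors' deposited table (DESeq2 adjusted p = 1.98e-30, 3.53e-81 and 6.81e-09). Dppa3, which displaces Uhrf1 from chromatin in the mouse germ line and embryo, was at -9.02 ± 1.03, -8.50 ± 0.59 and -8.34 ± 0.65 in the authors' deposited table (DESeq2 adjusted p = 7.72e-18, 2.65e-45 and 6.58e-36). In ESC-OB its level of 0.0643 CPM and that of Prdm14, 0.103 CPM, lay under the floor of 0.114 CPM, so those fitted changes rest on the authors' shrinkage and are no bound.

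Excision and repair of oxidised bases split. Of 14 genes, 9 fell and 3 rose in ESC-OB, 9 fell and 4 rose in sorted ESC-OB GFP+, and 5 fell and 3 rose in iPSC-OB (medians -1.71, -1.25 and -0.31). Parp1, which senses strand breaks, and Ung, a uracil glycosylase, were at -3.70 ± 0.17 and -4.26 ± 0.20 in ESC-OB in the authors' deposited table (DESeq2 adjusted p = 3.76e-105 and 8.44e-100). Mbd4, a glycosylase for mismatches at CpG, was at -2.32 ± 0.21 in ESC-OB and -2.21 ± 0.19 in sorted ESC-OB GFP+, and its -0.55 ± 0.29 in iPSC-OB did not pass by the authors' deposited table (DESeq2 adjusted p = 5.01e-27, 9.53e-30 and 0.111). The 3 that rose in ESC-OB were the stress-response genes Gadd45g, Gadd45a and Gadd45b, which have been linked to active demethylation. Gadd45g was at 74.2 CPM in ESC-OB and 356 CPM in sorted ESC-OB GFP+, against 0.890 CPM in ESC, with changes of 6.28 ± 0.49 and 8.49 ± 0.49 in the authors' deposited table (DESeq2 adjusted p = 4.94e-36 and 3.45e-65). In iPSC-OB Gadd45g rose by 1.02 ± 0.34 and Gadd45a fell by 0.98 ± 0.21 in the authors' deposited table (DESeq2 adjusted p = 0.00679 and 2.04e-05), while Gadd45a rose by 2.21 ± 0.23 in ESC-OB (adjusted p = 1.83e-21). Tdg, the glycosylase for fully oxidised methylcytosine, had a base mean of 0.506 in the ESC fit and 1.75 in the iPSC fit, and the sources used here do not say how reads shared with processed copies were counted, so no change is read from it.

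Readers of methylated and unmethylated CpG went both ways. Of 11, 5 rose and 2 fell in ESC-OB, 4 rose and 7 fell in sorted ESC-OB GFP+, and 6 rose and 2 fell in iPSC-OB (medians 0.15, -0.33 and 0.59). Over all tested genes 38.6% rose and 31.0% fell in ESC-OB, 39.1% and 32.4% in sorted ESC-OB GFP+, and 26.1% and 23.1% in iPSC-OB. Mbd2, which recruits a repressor complex to methylated CpG, rose by 2.90 ± 0.15, 3.72 ± 0.14 and 2.42 ± 0.30 in the authors' deposited table (DESeq2 adjusted p = 6.70e-85, 6.70e-145 and 1.56e-14), and Zbtb4, a zinc finger reader, by 4.69 ± 0.23, 2.54 ± 0.23 and 3.33 ± 0.27 (adjusted p = 1.68e-89, 3.60e-27 and 2.96e-33). Zbtb33, another reader, named after its values were seen, was at 2.05 CPM in sorted ESC-OB GFP+ and 28.8 CPM in ESC-OB. The difference was -3.87 ± 0.23 (adjusted p = 3.66e-60, Wald test). Uhrf2, the relative of Uhrf1, was at 0.15 ± 0.11 in ESC-OB, which did not pass, -0.33 ± 0.11 in sorted ESC-OB GFP+ and 0.83 ± 0.28 in iPSC-OB in the authors' deposited table (DESeq2 adjusted p = 0.228, 0.00458 and 0.00767).

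Among Tet partners and enzymes that supply their cofactor, 2 of 9 rose and 6 fell in each ESC comparison, and 4 rose and 3 fell in iPSC-OB (medians -0.89, -0.60 and 0.42). Ogt, the sugar transferase that binds Tet enzymes, was at -1.60 ± 0.17 in ESC-OB, -1.81 ± 0.16 in sorted ESC-OB GFP+ and 0.60 ± 0.21 in iPSC-OB in the authors' deposited table (DESeq2 adjusted p = 2.97e-21, 2.08e-27 and 0.0120), and its change was higher in iPSC-OB by 2.20 ± 0.27 (adjusted p = 2.67e-14, Wald test). Idh1, which makes 2-oxoglutarate, fell by 0.58 ± 0.10 in ESC-OB and rose by 0.42 ± 0.16 in iPSC-OB in the authors' deposited table (DESeq2 adjusted p = 1.76e-08 and 0.0199). Wt1, a DNA-binding partner of Tet2, was at 15.2 CPM in ESC-OB and 12.2 CPM in sorted ESC-OB GFP+, against 1.47 CPM in ESC, and rose by 3.27 ± 0.34 and 2.89 ± 0.33 in the authors' deposited table (DESeq2 adjusted p = 2.44e-21 and 1.75e-17).

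The methyl donor pathway, which makes S-adenosylmethionine and clears its by-product, had 7 of 12 genes lower and 3 higher in each ESC comparison, and 8 lower and 1 higher in iPSC-OB (medians -0.81, -0.87 and -1.39). Ahcy, which removes the by-product that inhibits methyltransferases, was at -3.56 ± 0.19 in ESC-OB, -4.66 ± 0.19 in sorted ESC-OB GFP+ and -2.83 ± 0.15 in iPSC-OB in the authors' deposited table (DESeq2 adjusted p = 1.64e-78, 1.14e-135 and 1.29e-72). Mat2a, which makes the donor, fell by 0.58 ± 0.20 in ESC-OB and by 1.47 ± 0.27 in iPSC-OB, and its -0.38 ± 0.20 in sorted ESC-OB GFP+ did not pass by the authors' deposited table (DESeq2 adjusted p = 0.00548, 4.19e-07 and 0.0734).

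Genes with the most similar pattern were sought among 9809 genes with a base mean of at least 100 in both fits, by the distance between their 3 log2 changes and those of each member. The nearest to Uhrf1 were Mcm10, Esco2 and Slc4a5, at distances of 0.53, 0.59 and 0.62, against a median of 7.83 over all genes searched. The nearest to Dnmt1 were BC055324, Arhgap19 and Fancb (0.23, 0.26 and 0.26, median 4.48), and the nearest to Tet2 were Yes1, Plk4 and Topbp1 (0.20, 0.22 and 0.25, median 3.28). Tet1 lay nearest to Alg13, Zfp936 and Map7d2 (0.85, 1.06 and 1.24, median 10.6). Tet3 lay nearest to Frs2, Zeb1 and Entpd7 (0.22, 0.26 and 0.32, median 3.41), and Dnmt3a to Fam49a and Spata13 (0.40 and 0.41, median 3.00). Dnmt3b lay nearest to Dusp27, Ccne1 and Ccnb1ip1 (0.68, 0.75 and 0.82, median 7.19), and Dnmt3l to Zfp808, Urb2 and Fasn (0.16, 0.19 and 0.23, median 4.73). These distances rest on 3 comparisons, 2 of which share their ESC libraries.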

How the data were processed

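RNA sequencing of 5 groups of mouse cells was analysed from 3 tables that the authors deposited, with no values per single sample. DESeq2, R 3.2.2 and STAR 2.4.2a appear in the submitters' processing notes beside the genome build mm9, without a statement of their use. Per the file headers, the deposited columns are DESeq2's: the base mean, which is a signal (size-factor-scaled counts averaged over the libraries fitted by the authors), the log2 fold change, its error, the statistic (a score), and p-values before and after adjustment. The sign is not stated in the tables and was read from Pou5f1, Nanog and Esrrb, strongly negative in all 3, so positive means higher in differentiated cells. Fold changes are shrunken: standard errors level off at 1.89, 1.89 and 1.29, so low-count genes have understated folds. The median log2 change of genes with a base mean of at least 10 was 0.19, 0.21 and 0.06.

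Adjusted p-values were used as deposited, with a threshold of 0.05. What 1 read is worth in each library was solved from base means under 1, and 2040 of 2040 (ESC fit, 9 libraries) and 1456 of 1456 (iPSC fit, 5 libraries) were explained within 3e-07. This solution gave iPSC 3 libraries, whereas the labels name 2. Group levels in CPM follow from base means, folds and library numbers, leaving out the ribosomal gene Rn45s, and their errors from dispersions solved from the standard errors. The floor of 3 reads covers counting error only. Differences of changes had a Wald test with Benjamini-Hochberg adjustment over all genes, in Python 3.11.15 with scipy 1.17.1, and the script was tested on simulated data. Promoter windows are RefSeq's on GRCm38.p6, while exon lengths and overlaps are from GENCODE. The members and 16 lists (8 of the pathway, 8 of cell type markers) were chosen with earlier results of these data known. Named genes were the members, the 3 largest statistics and up to 3 opposite calls of each pathway list in ESC-OB, and a fixed set of other regulators. Of the list genes, Paf15 and Rhox5 were matched in no table. Some genes that the naming rule selects are not reported here.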

Additional observations from a re-analysis of the deposited data

Results flagged for a closer look

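For 3 genes the change against ESC differed between sorted ESC-OB GFP+ and ESC-OB by a Wald test of the difference: Dnmt1 by -0.73, Tet1 by -1.41 and Tet3 by -1.12 on the log2 scale, each lower in the sorted cells. For 7 genes the change in iPSC-OB differed from that in ESC-OB by the same test: Uhrf1 by 3.03, Tet1 by 2.28, Dnmt1 by 1.76, Tet2 by 1.74, Tet3 by 1.08, Dnmt3b by -1.18 and Dnmt3a by -2.55. Among these, Dnmt3a was the gene with opposite calls in the 2 series.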

How the results depend on the processing

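Directions of the 8 genes' changes and of their differences were the same under each alternative run, except that Tet3 in sorted ESC-OB GFP+, which did not pass, was at -0.11 when re-centred on the median gene. Requiring a log2 change of at least 1 in size left 1 member that rose in ESC-OB and 0 in sorted ESC-OB GFP+, because Dnmt3a lay below that size in both, and also removed Dnmt1 in iPSC-OB. At an adjusted p of 0.01, 1 member was lower in sorted ESC-OB GFP+ than in ESC-OB (Tet3), with Dnmt1 (0.0108) and Tet1 (0.0189) lost, and 1 had a lower change in iPSC-OB than in ESC-OB (Dnmt3a), with Dnmt3b (0.0128) lost. Adjusting over other gene sets, re-centring on the median gene, undoing the shrinkage and allowing for the shared ESC libraries changed no call of a member. Levels moved by factors of 0.833 to 1.23 with 2 iPSC libraries, putting iPSC-OB at 51.3 CPM for Dnmt3b, 106 for Uhrf1 and 55.1 for Tet1. They moved by 0.917 to 0.996 with Rn45s in the total and by 0.548 to 1.10 with shrinkage undone, the lowest for Dnmt3l in sorted ESC-OB GFP+. Length by the longest coding transcript left the 30 family shares within 1.5-fold. In ESC it put Dnmt3l (46.6%) slightly above Dnmt3b (45.7%), whereas Dnmt3b led there by exon length (53.7%, with Dnmt3l at 37.4%). Leaving out each replicate was not run, as only values per group were at hand. No paired analysis was possible because the tables carry no columns for single samples. Errors of Dnmt3l limit what can be said of it.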

Other observations

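Germline genes that promoter methylation silences in somatic cells mostly did not rise. Of 17 measured in the ESC tables, 10 fell and 1 rose in ESC-OB and 11 fell and 1 rose in sorted ESC-OB GFP+, and of 16 in the iPSC comparison 9 fell and 2 rose, with medians of -2.64, -2.91 and -2.21. Dazl, an RNA-binding protein of germ cells, was at 0.0308 CPM in ESC-OB, under the floor of 0.114 CPM, against 24.6 CPM in ESC, and at 0.292 CPM in iPSC-OB, against 3.54 CPM in iPSC. Mael, which acts in transposon silencing, was at -5.06 ± 0.64, -5.76 ± 0.55 and -5.58 ± 0.91, and Sycp3, of the meiotic chromosome axis, at -2.72 ± 0.46, -3.92 ± 0.45 and -4.20 ± 0.43 in the authors' deposited table (adjusted p from DESeq2 = 8.98e-15, 5.08e-25 and 8.68e-09 for Mael, and 9.73e-09, 7.58e-18 and 1.04e-20 for Sycp3). The gene that rose in both ESC comparisons was Dpep3, a testis dipeptidase, by 3.13 ± 0.59 and 3.93 ± 0.57 in the authors' deposited table (DESeq2 adjusted p = 3.17e-07 and 2.14e-11). The 2 that rose in iPSC-OB were Taf7l and Brdt, testis relatives of general transcription and bromodomain proteins, by 2.51 ± 0.90 and 1.85 ± 0.63 in the authors' deposited table (DESeq2 adjusted p = 0.0133 and 0.00810), named after their values were seen.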
